A study of Homo sapiens with 4 samples.

Results

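CD63 and TYRP1, genes whose proteins are both found in melanosomes, were followed through the 4 arrays of the series, spot by spot. They were taken by annotation, as every oligonucleotide whose gene symbol is CD63 or TYRP1. Both genes were chosen with earlier results of these data known, and the p-values below do not allow for that choice. They are 2 of the 1892 genes annotated on the array. Each had 1 of the 3048 oligonucleotides, VM_H200006278 for CD63 and VM_H200006035 for TYRP1. Both were spotted 4 times on each array and both were measured on all 4. The cells were SK-MEL28, an established human malignant melanoma line. In 1 group the cells received 8 ECT pulses, the short high-field kind used in electrochemotherapy (1300 V/cm, 100 μs each, 1 Hz), and in the other 8 EGT pulses, the long low-field kind used in electrogene therapy (600 V/cm, 5 ms each, 1 Hz). RNA was isolated 16 h later. Controls came from 1 aliquot of the same suspension that received no pulse. There were 2 arrays per pulse type. On every array the untreated cells carried Cy3 and the exposed cells Cy5, and the dyes were not swapped. Cisplatin is also named in the source of 3 arrays, ECT array 2 and the EGT pair, although the treatment protocol leaves it out. The study is of a single cell line, and separate cultures are not stated for the arrays of 1 pulse type. The p-values thus measure the spread between arrays, which may be technical. If the cisplatin labels hold, the 2 ECT arrays also differ in treatment. That could not be told apart from their spread or from a difference between pulse types.

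TYRP1 is a glycoprotein of the melanosome membrane that acts late in melanin synthesis and stabilises tyrosinase. CD63 is a tetraspanin, a protein that crosses the membrane 4 times, found in late endosomes, lysosomes and melanosomes. It takes part in sorting cargo onto vesicles inside these compartments and was first known as an antigen of melanoma cells. Transcription of many pigment genes, TYRP1 among them, depends on MITF, the basic helix-loop-helix factor that directs the melanocyte lineage.

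In RefSeq on GRCh38.p14, TYRP1 lies on chromosome 9 (12693385 to 12710285) and CD63 on chromosome 12 (55723535 to 55730041). The oligonucleotides are annotated to the transcripts NM_000550 and NM_001780, and where in the transcript they bind was not analysed here. The promoter windows below are shown because MITF was also measured. Each holds 250 bases before and 50 after an annotated start, written 5′ to 3′ on the strand of the gene (plus for TYRP1, minus for CD63). Capitals mark CATGTG, read on either strand (as CACATG on the other), and CACGTG, which reads the same on both. These 2 hexamers are letters that MITF is known to bind, and they do not overlap here. The TYRP1 window is chr9:12693135-12693434, and the CD63 window is the first of 8 in the RefSeq table, chr12:55728960-55729259.
TYRP1: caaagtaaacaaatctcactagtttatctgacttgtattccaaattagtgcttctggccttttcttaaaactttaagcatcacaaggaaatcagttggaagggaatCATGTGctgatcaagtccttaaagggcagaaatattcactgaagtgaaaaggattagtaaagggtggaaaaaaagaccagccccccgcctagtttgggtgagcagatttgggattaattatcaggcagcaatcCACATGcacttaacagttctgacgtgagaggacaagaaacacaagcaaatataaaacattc
CD63: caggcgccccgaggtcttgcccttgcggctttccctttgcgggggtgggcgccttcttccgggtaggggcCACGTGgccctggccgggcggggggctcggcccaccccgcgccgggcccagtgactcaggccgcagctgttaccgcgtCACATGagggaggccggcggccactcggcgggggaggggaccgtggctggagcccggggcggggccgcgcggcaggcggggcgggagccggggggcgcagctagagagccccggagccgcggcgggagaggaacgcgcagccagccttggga
The TYRP1 window held CATGTG at 2 places and no CACGTG. Of the 8 CD63 windows 1 held each hexamer, the one printed. Of 35116 promoter windows of this length, 11.1% held CATGTG on either strand and 7.26% held CACGTG.

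The deposited scanner values are brightness on a linear scale, with background not subtracted. Depth has no counterpart here, and the number of arrays limits the precision. Median signal over background was 2.21 to 5.38 in the untreated channel and 1.64 to 2.20 in the exposed channel, and 1208 to 1537 of 3048 oligonucleotides were measured per array. Log2 ratios of ECT array 1 and EGT array 2 correlated at 0.747 over the 1164 oligonucleotides measured on all 4 arrays, and every other pair of arrays at 0.405 to 0.487, including the arrays of 1 pulse type. The closest pair thus crossed the pulse types. The methods name 1 unpulsed aliquot as the control, and whether its RNA went onto all 4 arrays is not stated. Only EGT array 1 had spots whose local background exceeded 1000. These 4 spots were left out, and none belonged to CD63 or TYRP1.

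CD63 was bright in untreated cells. The median of its 4 spots in the untreated channel was 7887.5 on ECT array 1, 4381.5 on ECT array 2, 6314.5 on EGT array 1 and 4405.5 on EGT array 2, which is 272 to 494 times the local background. In the exposed channel the medians were 1127.5, 1851.5, 2298.5 and 1695 in the same order. The untreated spots were brighter than the exposed spots on every array, with no overlap between channels. Over all spots the untreated channel was also the brighter, with medians of 80, 32, 40 and 41 in the same order. Those of the exposed channel were 32, 27, 27 and 35. The share of all oligonucleotides without overlap was not counted, so this is not particular to CD63. The channels differ in overall brightness, so this brightness becomes a difference between cells only after normalization.

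TYRP1 was also far above background. Its untreated medians were 2442 and 1941 in the ECT pair, arrays 1 and 2 in turn, and 2813 and 1472.5 in the EGT pair, or 103 to 210 times background. Its exposed medians were 1162, 1225.5, 1455.5 and 1873 in the same order. On EGT array 2 the exposed spots, at 1665 to 2057, lay above the untreated spots, at 1425 to 1557, and on the other arrays they lay below. Brightness depends on the oligonucleotide as well as on the RNA, so the levels of the 2 genes were not compared with each other.

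**Figure D1:**
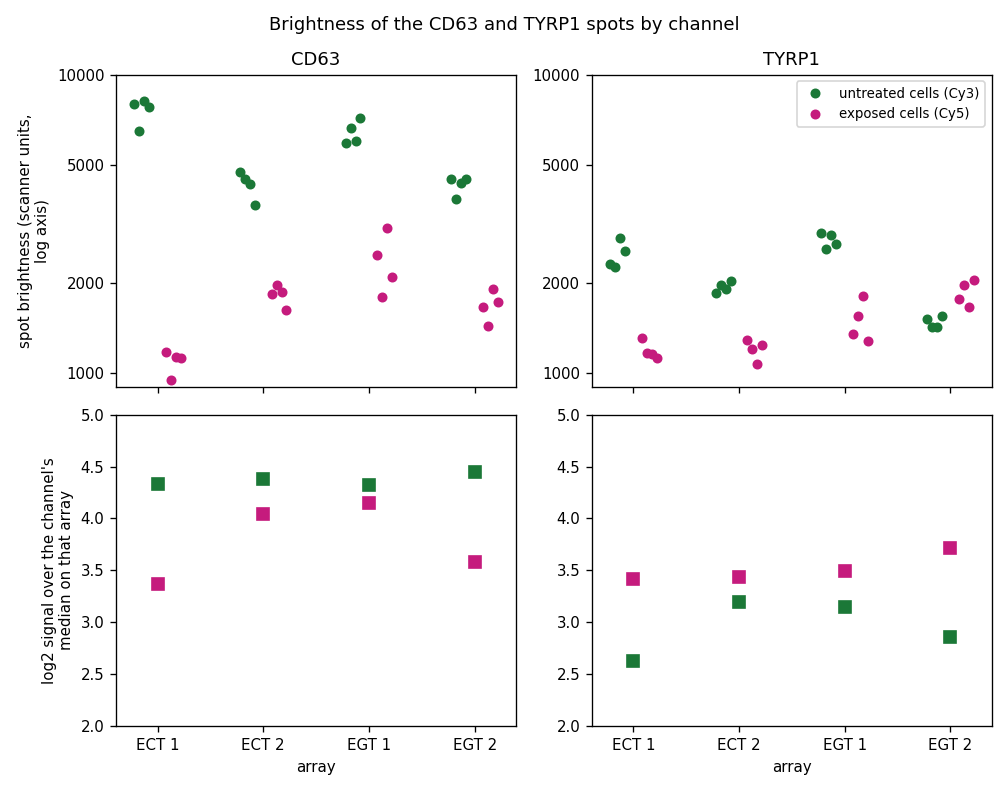
Spots of CD63 and TYRP1 on the 4 arrays, untreated cells (Cy3) in green and exposed cells (Cy5) in magenta. Upper panels give the brightness of each spot in scanner units on a log axis. Lower panels give the log2 signal over the median of that channel on that array. The untreated level of CD63 lies between 4.32 and 4.45 on all arrays, above every exposed level, and for TYRP1 the exposed level is above the untreated level on all 4.

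Set against the median of its channel over the 1164 oligonucleotides measured on all arrays, the untreated signal of CD63 was higher by 4.33 and 4.38 log2 units in the ECT pair and by 4.32 and 4.45 in the EGT pair. The exposed signal was higher by 3.37 and 4.04 in the ECT pair and by 4.15 and 3.58 in the EGT pair. The untreated level thus spanned 0.13 log2 units over the 4 arrays and the exposed level 0.78. For TYRP1 the untreated level was 2.63, 3.20, 3.15 and 2.86 in the same order, a span of 0.57, and the exposed level was 3.42, 3.44, 3.49 and 3.72, a span of 0.30. The arrays with the largest ratios of TYRP1, ECT array 1 and EGT array 2, were those with its lowest untreated level.

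After loess normalization within each array, CD63 was below 0 on all 4 arrays. Its log2 ratio of exposed over untreated cells was -1.10 and -0.38 after ECT (arrays 1 and 2 in turn, here and below), then -0.37 and -0.92 after EGT. It was 2.14-fold lower on ECT array 1 and 1.89-fold lower on EGT array 2, and 1.30-fold and 1.29-fold lower on the other arrays. Between the 4 spots the SD was 0.044 on ECT array 1, 0.092 on ECT array 2 and 0.113 on EGT array 2. On EGT array 1 it was 0.423, with spots at -0.11, -0.74, 0.15 and -0.63, so 1 of its 4 spots there was above 0. Of 1164 oligonucleotides, 20.2% were below 0 on all 4 arrays, so the direction alone does not set CD63 apart.

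TYRP1 was above 0 on all 4 arrays, at 0.58 and 0.12 after ECT, then 0.26 and 0.75 after EGT. It was 1.69-fold higher on EGT array 2 and 1.09-fold higher on ECT array 2. The spots ranged from 0.38 to 0.84 on ECT array 1, from 0.01 to 0.31 on ECT array 2, from 0.06 to 0.48 on EGT array 1 and from 0.66 to 0.90 on EGT array 2, so every spot was above 0. The value of EGT array 1 rests on the 4 spots left out for high local background, since with them TYRP1 was at 0.05 there and CD63 at -0.50. Keeping them narrowed the spread of all log2 ratios on EGT array 1, from a median absolute deviation of 0.178 to 0.0262. Above 0 on all 4 arrays were 17.8% of the 1164 oligonucleotides. With each array centred on its median in place of loess, TYRP1 was at 0.17 and -0.13 after ECT, then -0.06 and 0.52 after EGT, with a mean of 0.13 and an adjusted p of 0.403 from limma. Its direction on single arrays thus turned with this setting, whereas CD63 was then at -1.51, -0.62, -0.65 and -1.16. Without a dye swap, the effects of dye and pulses cannot be told apart. Less RNA per cell and fewer cells with the RNA cannot be told apart either.

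**Figure D2:**
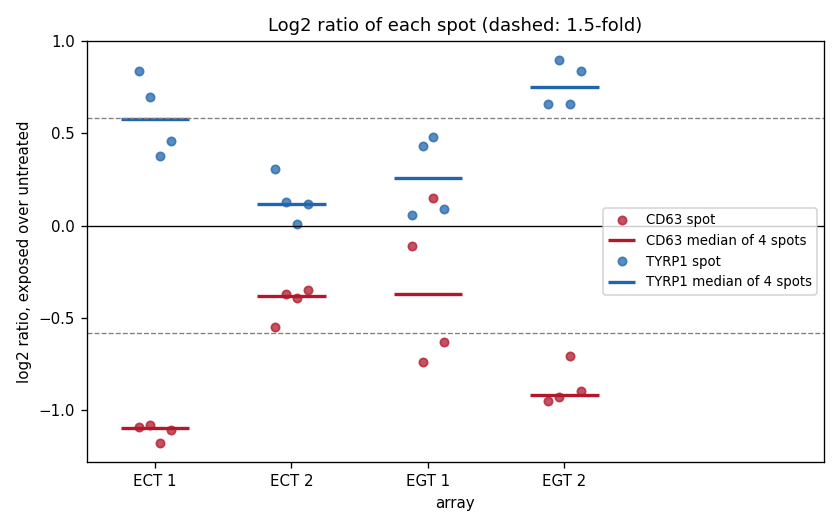
Log2 ratio of exposed over untreated cells for each spot of CD63 (red) and TYRP1 (blue) on each array, with the median of the 4 spots as a bar and 1.5-fold as dashed lines. The medians of CD63 lie between -1.10 and -0.37, with wide spots on EGT array 1, and those of TYRP1 between 0.12 and 0.75.

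The log2 ratio of TYRP1 exceeded that of CD63 by 1.68 on ECT array 1 and 0.51 on ECT array 2. On EGT arrays 1 and 2 it did so by 0.63 and 1.67. With the background subtracted and no normalization the gaps were 1.71, 0.48, 0.59 and 1.72, while the deposited normalized ratios gave gaps of 1.76, 0.57, 0.60 and 1.68. The gap was wide on ECT array 1 and EGT array 2 and narrow on the other arrays. The deposited ratios were -1.18, -0.46, -0.36 and -0.90 for CD63, and 0.58, 0.12, 0.24 and 0.78 for TYRP1.

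Among all oligonucleotides measured on an array, ordered from the lowest log2 ratio, CD63 stood at place 19 of 1478 on ECT array 1, 64 of 1208 on ECT array 2, 68 of 1393 on EGT array 1 and 12 of 1537 on EGT array 2. From the highest, TYRP1 stood at place 45, 284, 103 and 9 in the same order. On a single array CD63 was at least 1.5-fold lower on ECT array 1, as were 6.02% of oligonucleotides, and on EGT array 2, as were 3.32%. TYRP1 was at least 1.5-fold higher on EGT array 2, as were 1.37%. On ECT array 1, where 2.98% were, it fell just short at 0.5822, which rounds to 1.5-fold. Neither passed the rule as read here from the study's methods, at least 1.5-fold in 1 direction on both arrays of a pulse type. It was passed by 0.935% of 1176 oligonucleotides for ECT and 0.603% of 1327 for EGT. These were fewer than the genes the paper lists for either pulse type, so its lists were not reproduced. Neither CD63 nor TYRP1 is in those lists. With median centring CD63 passed this rule for both pulse types, as did 2.81% of oligonucleotides for ECT (31 of 33 lower) and 2.41% for EGT (32 of 32 lower).

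**Figure D3:**
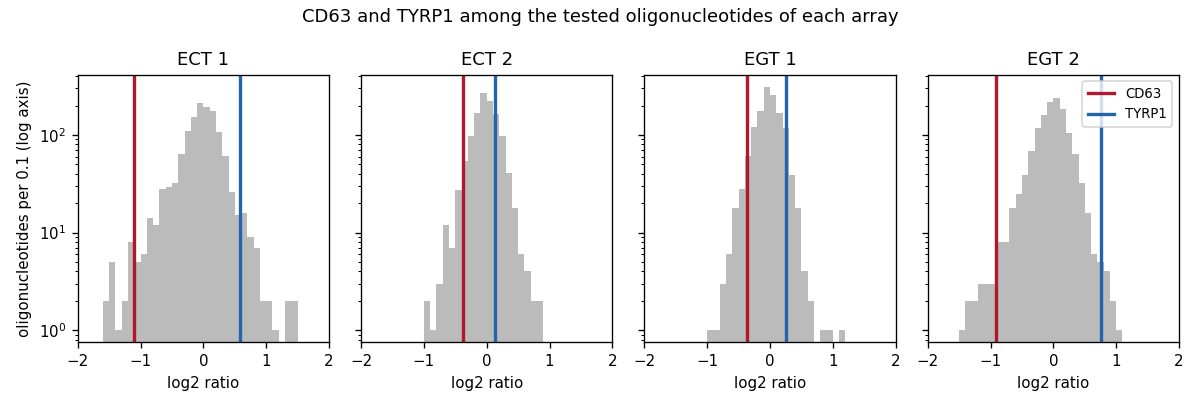
Histograms of the log2 ratio of the tested oligonucleotides on each array (counts per 0.1 on a log axis), with CD63 as a red line and TYRP1 as a blue line. CD63 sits in the lower tail on every array, farther out on ECT array 1 and EGT array 2 than on the others. TYRP1 is farthest out on EGT array 2, at 0.75.

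The question of each comparison was whether pulses changed expression 16 h later. After ECT pulses CD63 averaged -0.74 ± 0.51 (SD, n = 2), or 1.67-fold lower, and TYRP1 averaged 0.35 ± 0.32 (SD, n = 2). In limma, with Benjamini-Hochberg adjustment over 1176 oligonucleotides, the adjusted p was 0.199 for CD63 and 0.347 for TYRP1. The limma call at an adjusted p of 0.05 went to 0% of oligonucleotides for ECT, and an unadjusted p under 0.05 to 16.4%, CD63 among them.

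After EGT pulses CD63 averaged -0.64 ± 0.39 (SD, n = 2), or 1.56-fold lower, and TYRP1 averaged 0.51 ± 0.35 (SD, n = 2), or 1.42-fold higher. The adjusted p from limma was 0.267 for both. Called at 0.05 were again 0%, here of 1327 oligonucleotides, and 15.7% had an unadjusted p under 0.05, CD63 and TYRP1 among them. With the 4 spots of high local background kept, TYRP1 after EGT was at 0.40 and was no longer among those, with an unadjusted p of 0.0946 and an adjusted p of 0.801 from limma. For each gene the difference between the arrays of 1 pulse type was larger than the difference between pulse types.

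Over both pulse types together CD63 was at -0.69 (standard error 0.14, 95% confidence interval -1.04 to -0.34), or 1.62-fold lower, with an adjusted p of 0.0565 from limma. TYRP1 was at 0.43 (standard error 0.12, interval 0.15 to 0.71), or 1.35-fold higher, with an adjusted p of 0.0934 from limma. Neither was among the 0.687% of 1164 oligonucleotides called, while both were among the 28.1% with an unadjusted p under 0.05. By unadjusted p CD63 stood at place 56 and TYRP1 at place 119. Leaving aside fits with array numbers as a block, CD63 passed the adjusted threshold in 6 of 14 alternative settings and TYRP1 in 0 of 14. Over these the adjusted p from limma ranged from 0.00768 to 0.347 for CD63 and from 0.0529 to 0.403 for TYRP1. Where CD63 passed with every array used, calls over all oligonucleotides also rose from the 8 of 1164 reported. They were 55 of 1164 with no background correction, 60 of 1263 in the authors' values and 68 of 908 at 3 times background. With arrays scaled to 1 spread they were 76 of 1164, and with median centring 401 of 1164. An exact sign-flip test over the 4 arrays, two-sided, gave p = 0.125 for each gene, the smallest that 4 arrays allow.

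No difference between the pulse types was detected for either gene. ECT minus EGT was -0.10 for CD63 (95% confidence interval -0.80 to 0.61) and -0.15 for TYRP1 (-0.72 to 0.41), with an adjusted p of 0.989 from limma for both. The call rate for this difference was 0% of 1164. The intervals leave room for a difference of over 1.5-fold in either direction for CD63, and in favour of EGT for TYRP1. An exact permutation of the arrays between pulse types, two-sided, gave p = 0.667 for each gene, where the smallest possible is 0.333.

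**Figure D4:**
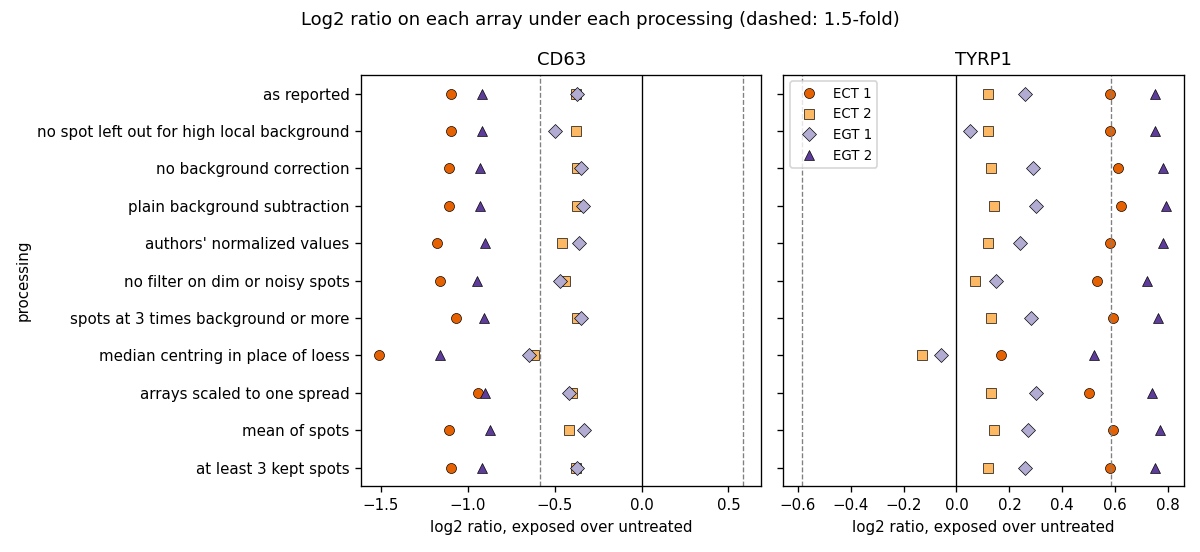
Log2 ratio of CD63 (left) and TYRP1 (right) on each of the 4 arrays under each processing, with 1.5-fold as dashed lines. CD63 is below 0 on 4 of 4 arrays in every row. TYRP1 is above 0 on all arrays except in the row of median centring, where ECT array 2 is at -0.13 and EGT array 1 at -0.06.

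Other genes had nearly the same log2 ratios as CD63 across the 4 arrays. By root mean square difference over 998 oligonucleotides with a gene symbol, the nearest were S100B, a calcium-binding protein of melanocytes and glia (0.0735), the nucleoside diphosphate kinase NME2 (0.0738), whose near-identical paralog NME1 may share its oligonucleotide, and the mitochondrial pyrophosphatase PPA2 (0.084). S100B was at -1.14 and -0.33 after ECT, then -0.36 and -0.79 after EGT. The paper lists S100B as lower after ECT, although it did not pass the 1.5-fold rule as applied here. Nearest to TYRP1 were the autophagy adaptor TAX1BP1 (0.113), PKIA, an inhibitor of protein kinase A (0.128), and the spermidine synthase SRM (0.136). TAX1BP1 was at 0.41, 0.13, 0.30 and 0.62 in the same order. These genes were picked for likeness over the same 4 values, so the likeness is a description.

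Other genes of the melanocyte lineage and of pigment lay on both sides of 0. Of 28 genes listed, 15 are annotated on the array and 10 were measured on all 4 arrays, TYRP1 among them. Of the 9 others the mean log2 ratio over the arrays was above 0 for 3 and below 0 for 6, none was called by limma, and their median was -0.03, against -0.01 over all 1164. MITF was above 0 on all arrays (0.08 and 0.19 after ECT, then 0.12 and 0.40 after EGT), with a mean of 0.20 and an adjusted p of 0.172 from limma. TYR, tyrosinase, the first enzyme of melanin synthesis, was at 0.00, -0.13, -0.04 and 0.34. The lineage factor SOX10 averaged -0.03, the melanosome protein MLANA -0.03 and GPNMB, another melanosome glycoprotein, 0.07. RAB38, a GTPase that delivers TYRP1 to melanosomes, averaged -0.20, with all 4 arrays below 0 and an adjusted p of 0.156 from limma. S100B, at -0.65 with an adjusted p of 0.0674 from limma, had the lowest mean of the list, and TYRP1 the highest.

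Of the list of tetraspanins and their partners, 13 of 34 genes are annotated on the array and 7 were measured on all arrays, CD63 among them. Of the 6 others the mean was above 0 for 2 and below 0 for 4, limma called none, and the median was -0.11. The next lowest after CD63 was CD82, a tetraspanin known as a suppressor of metastasis, at -0.24 and -0.18 after ECT, then -0.33 and -0.23 after EGT. Its mean was -0.25, with an adjusted p of 0.0972 from limma, and its values spread over a narrower range than those of CD63. CD37, a tetraspanin of lymphocytes, averaged -0.10, TSPAN4 -0.12 and the integrin subunit ITGB1 -0.16. The 2 above 0 were the tetraspanins UPK1A, of the bladder lining, at 0.13 and TSPAN31 at 0.03. TIMP1, a secreted ligand of CD63, and the tetraspanin CD81 did not pass the spot filter on any array.

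Of the proteins of lysosomes and endosomes, where CD63 resides, 8 of 29 listed genes are annotated on the array and 5 were measured on all arrays. The proteases CTSD, CTSK and CTSL averaged 0.28, 0.22 and 0.21, with adjusted p of 0.153, 0.135 and 0.148 from limma. The secreted glycoprotein LGALS3BP averaged -0.18 and the cholesterol transporter NPC1 -0.06. CTSD was at 0.54 and -0.03 after ECT, then 0.33 and 0.29 after EGT, above 0 on 3 of 4 arrays.

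**Figure D5:**
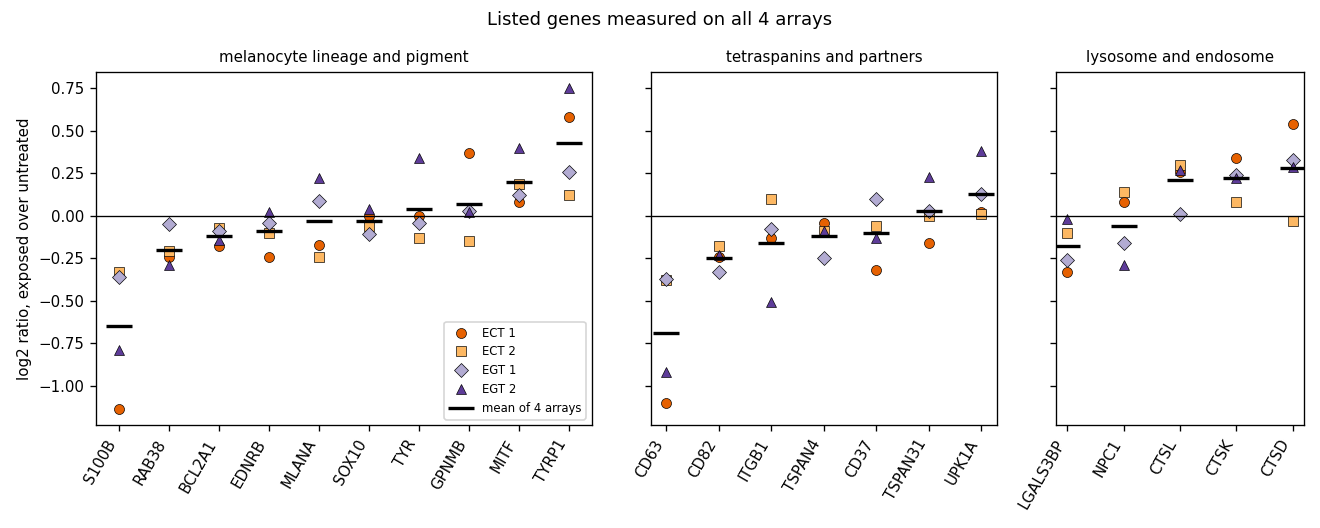
Log2 ratio on each array (symbols) and mean of the 4 arrays (black bar) for the listed genes measured on all 4, in 3 panels by list. CD63 and S100B are the lowest, both near -1.1 on ECT array 1, and TYRP1 is the highest.

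The label of a melanoma line was set against lineage markers in the untreated channel. Of 15 oligonucleotides of the melanocyte lineage and pigment list, 11 (73.3%) were at least 2 times background in that channel on every array. Without TYRP1 they were 10 of 14 (71.4%), against 53.4% of all 3048. Among the 11 were TYR (15.4 to 31.2 times), MLANA (10.6 to 23.0), SOX10 (16.3 to 42.2) and MITF (19.5 to 107). The 4 that were not were the receptor KIT (1.39 to 2.25), GPR143, a receptor of the melanosome (1.47 to 3.35), EDN1 (1.33 to 2.17) and POMC (1.84 to 4.77). Of these only KIT was on the shorter list of lineage markers set for this check. Markers of other cells were not all dim. All 4 oligonucleotides of the keratins KRT1, KRT5 and KRT14 were at 78.1 to 1270 times background, the fibroblast genes COL3A1 and FAP at 65.9 to 146 and 3.15 to 7.80 times, and CD8A, a T cell marker, at 58.4 to 97.7 times. Of the endothelial markers VWF was at 8.01 to 14.8 times background. CDH5 and TEK, both endothelial, and CD4, of T cells, were under 2 times background on at least 1 array and were not measured on any. A bright spot was thus not by itself a sign of the lineage, and the part of cross-hybridisation in the brightness of CD63 and TYRP1 was not tested.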

How the data were processed

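RNA of untreated (Cy3) and exposed (Cy5) SK-MEL28 cells was hybridised to 4 arrays of long oligonucleotides. The authors scanned them and extracted spots with Array-Pro Analyzer, and the deposited intensity values are unnormalized. The deposited log2 ratios, made by the authors in Acuity with LOWESS and the median of spots, served as an alternative. Channel 2 over channel 1 correlated with that table at 0.654 to 0.930, which gave the direction exposed over untreated.

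Spots with a local background over 1000 were left out. Background was corrected by normexp (offset 50) in limma 3.58.1 (R 4.3.3). A spot was kept up to 65000, at 2 times background or more, and with a background SD of at most 0.3 of its intensity. Loess (span 0.3, 4 iterations) was fitted array by array, and an oligonucleotide with 2 or more spots kept was given their median. The 4 arrays were fitted together in limma, 1 coefficient per pulse type, with Benjamini-Hochberg adjustment across all oligonucleotides measured. The steps were tested on simulated data, with noise drawn separately for each array. The likeness of ECT array 1 and EGT array 2 was not simulated.

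Gene symbols come from the array annotation (1989 oligonucleotides, all matched by gene ID to GRCh38.p14). Named genes are the members, the genes of the lists and the 3 nearest patterns per member. Members, lists, markers and the limit on local background were chosen with earlier results of these data known. Alternatives changed the background correction, spot filter, normalization, spot summary, block and arrays used.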

Additional observations from a re-analysis of the deposited data

Results flagged for a closer look

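4 oligonucleotides of the lists were singled out because both arrays of 1 pulse type lay above 0 and both of the other below 0 on the log2 scale. The share of all 1164 oligonucleotides that split in this way was not counted, so their number is not read as a result. ECT minus EGT was 0.47 for the keratin KRT1 (0.15 after ECT and -0.31 after EGT), 0.34 for 1 of the 2 oligonucleotides of KRT14 (0.21 and -0.13), 0.34 for NPC1, a cholesterol transporter of lysosomes (0.11 and -0.23), and -0.36 for the melanosome protein MLANA (-0.21 and 0.15). In limma none of the 4 differences passed, with an adjusted p of 0.989 for each. Of the 4 only MLANA had an unadjusted p under 0.05 (0.0421 in limma), as had 31 of all 1164 oligonucleotides. The other KRT14 oligonucleotide was below 0 on all 4 arrays, so the pair disagreed. CD63 and TYRP1 were not among them.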

How the results depend on the processing

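CD63 stayed below 0 and TYRP1 above 0 in the mean over both pulse types in 16 of 16 alternatives, at -0.98 to -0.66 and 0.13 to 0.46 in those that used every array. Fits with array numbers as a block cannot move this mean, and every alternative draws on the same arrays. The limma call of CD63 in this mean, missed in the report at an adjusted p of 0.0565, was made with no background correction (-0.69, adjusted p 0.0441), in the authors' normalized values (-0.72, 0.0427), with spots at 3 times background (-0.68, 0.0243), with arrays scaled to 1 spread (-0.66, 0.0317) and with median centring (-0.98, 0.00768). Median centring also called CD63 after ECT (-1.06, adjusted p 0.0403) and after EGT (-0.90, 0.0339). Leaving out 1 array gave a mean of -0.87 to -0.51 for CD63, called in limma without ECT array 2 (adjusted p 0.0336). ECT minus EGT then ranged from -0.45 to 0.26 for CD63 and from -0.40 to 0.09 for TYRP1, so its sign turned with 1 array.

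With the array number as a replicate block, CD63 was called in the mean (-0.69, limma adjusted p 1.25e-05), after ECT (-0.74) and after EGT (-0.64), and TYRP1 in the mean (0.43, 0.00617). Calls rose to 139 in the mean, 69 after ECT and 36 after EGT. The numbers are only labels here, as same-numbered arrays deviated in opposite directions (correlation -0.444). Crossed numbers, chosen after seeing the data, gave 134 calls for the mean, CD63 (-0.69) and TYRP1 (0.43) among them, but 0 after ECT and 0 after EGT, where the adjusted p of CD63 in limma was 0.0589 and 0.0844.

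The 8 calls for the mean (3 lower, 5 higher) became 0 with no spot left out for background, 0 with no spot filter, 5 with the mean of spots, 55 with no background correction, 60 in the authors' values (38 lower, 22 higher), 68 at 3 times background, 76 with scaling (46 lower, 30 higher) and 401 with median centring (286 lower, 115 higher), and 0 to 83 with 1 array left out. Median centring moved the median of all oligonucleotides from -0.01 to -0.07 and gave 117 calls for ECT and 92 for EGT, where the authors' values gave 9 for EGT. Oligonucleotides past 1.5-fold on both arrays, 11 for ECT and 8 for EGT, became 17 and 13 with no background correction, 27 and 22 with plain subtraction, 17 and 14 in the authors' values and 33 and 32 with median centring, and 2 for EGT with no spot left out. The causes were not tested. Spot medians of CD63 and TYRP1 were at least 61 times background in both channels of every array, and the precision is limited by 2 arrays per pulse type.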
